A study of Prunus persica with 9 samples.

Results

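The late miRNA response of peach (Prunus persica) leaves was followed by setting the 3 small RNA libraries made 24 h after PpPep2 (24 h PpPep2) against the 3 control libraries (t0). Of the 210 annotated pre_miRNA genes listed, 135 had a mean of at least 5 normalized counts over all 9 libraries of the series and were compared. The leaves came from juvenile plants of var. Big Top, micropropagated and acclimatized in a glasshouse. The treated plants were sprayed with 1 µM PpPep2 on both faces of their 5 youngest fully grown leaves, and the blades were frozen without the central vein, after 1 h in the series' other treated group and after 24 h here. The control is called mock in the sample labels and untreated in the study, and it was taken at 0 h only. There is no control kept for 24 h, so an effect of PpPep2 and an effect of time or handling cannot be told apart in any value given here. Each replicate pooled leaves of several plants, and p-values measure the spread between such pools. In RNA of whole leaf blades, fewer cells of a type and less RNA per cell cannot be told apart either.

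PpPep2 is a plant elicitor peptide, one of a family of short peptides that plants perceive through membrane receptors as a sign of damage and that set off immune responses. Plant miRNAs are cut from hairpin precursors by DCL1 and loaded into an Argonaute protein, mostly AGO1, which then cleaves or represses mRNAs with a nearly complementary site. Many conserved families act on transcription factors of development, a few act on the silencing machinery itself, and others start the production of phased secondary siRNAs (phasiRNAs) from their targets, often from immune receptor genes.

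The study named 33 of the genes, in 18 families, and chose them on these same samples, so counts over them are a description and no independent evidence. All 33 passed the minimum mean. A family here holds only the genes the study named. The study counts further annotated members of miR395 and miR482, which are in no family sum given here. The mature sequences of those on which the results turn are shown so that members of a family can be told apart, with bases 2 to 8 in capitals, as the study's supplementary list gives them.
miR7122a 5p: uUAUACAAugaaaucacggccg
miR7122b 5p: uUAUACAAugaaaucacggucg
miR482f 3p: uCUUUCCUacuccacccauucc
miR482a 3p: uUUCCGAAaccucccauuccaa
miR482c 3p: uUCCCAAGcccgcccauuccaa
miR390 5p: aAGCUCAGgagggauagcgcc
miR403 3p: uUAGAUUCacgcacaaacucg
miR162 3p: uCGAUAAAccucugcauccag
miR396b 5p: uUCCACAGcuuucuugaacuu
miR156h 5p: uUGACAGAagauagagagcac
miR169d 5p: uGAGCCAAggaugacuugcca
miR166e 3p: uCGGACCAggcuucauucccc
miR395l 3p: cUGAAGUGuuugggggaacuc
miR395a 3p: cUGAAGUGuuuggggggaccc
miR535a 5p: uGACAACGagagagagcacgc
miR535b 5p: uGACGACGagagagagcacgc
miR530 5p: uCUGCAUUugcaccugcaccu
Counted from the 5′ end, miR7122a and miR7122b differ by C20U and miR535a and miR535b by A5G, while miR395a differs from miR395l by A17G and U20C. The letters of miR395l are listed for 8 of the 9 miR395 genes, those of miR156h also for miR156g, and miR171a and miR171c share theirs as well. The values are per precursor gene, and the division of identical reads between such copies is uncertain, so these genes are also given as sums.

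At 24 h, 19 of the 135 genes (14.1%) had an adjusted p under 0.05 (limma, Benjamini-Hochberg over all 135), 7 higher (5.19%) and 12 lower (8.89%). Those that rose were miR7122b, miR7122a, miR482f, miR403, miR396b, miR162 and the unnamed gene ENSRNA049996654. Those that fell were miR169d, miR535a, miR390, miR395f, miR156h, miR530, miR395i, miR535b, miR166e, miR395l, miR395j and the unnamed ENSRNA050004180. Named genes supplied 17 of the 19, so that 51.5% of the 33 were called. The 3 libraries of 24 h lay all above or all below the 3 of t0 for 56 genes (41.5%), 27 above (20%) and 29 below (21.5%), and the median log2 fold change over all 135 was -0.01. Values are normalized counts throughout, and fold changes are on the log2(normalized count + 1) scale, which understates the change of low genes. The calls depended on the control libraries. Without t0 replicate 1, or without t0 replicate 3, limma called 0 genes, with 37 at an unadjusted p under 0.05 in each case, and without t0 replicate 2 it called 3 higher and 4 lower. Leaving out 24 h replicate 1, 2 or 3 gave 1 and 4, 3 and 7, or 1 and 6 genes higher and lower, and leaving out replicate 1 of the 1 h group, which only adds to the estimate of the spread, gave 16 and 19. All 19 genes had the same sign of log2 fold change in every fit. Since their groups do not overlap, only a rescaling of libraries could have changed a sign, so this says little about stability. Scaling moved the balance: with equal library totals the median over all genes was -0.30 and 4 genes were higher and 18 lower (18.2% higher, against 36.8% as deposited), and with equal upper quartiles the median was 0.27 and 21 were higher and 9 lower (70.0% higher).

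**Figure D1:**
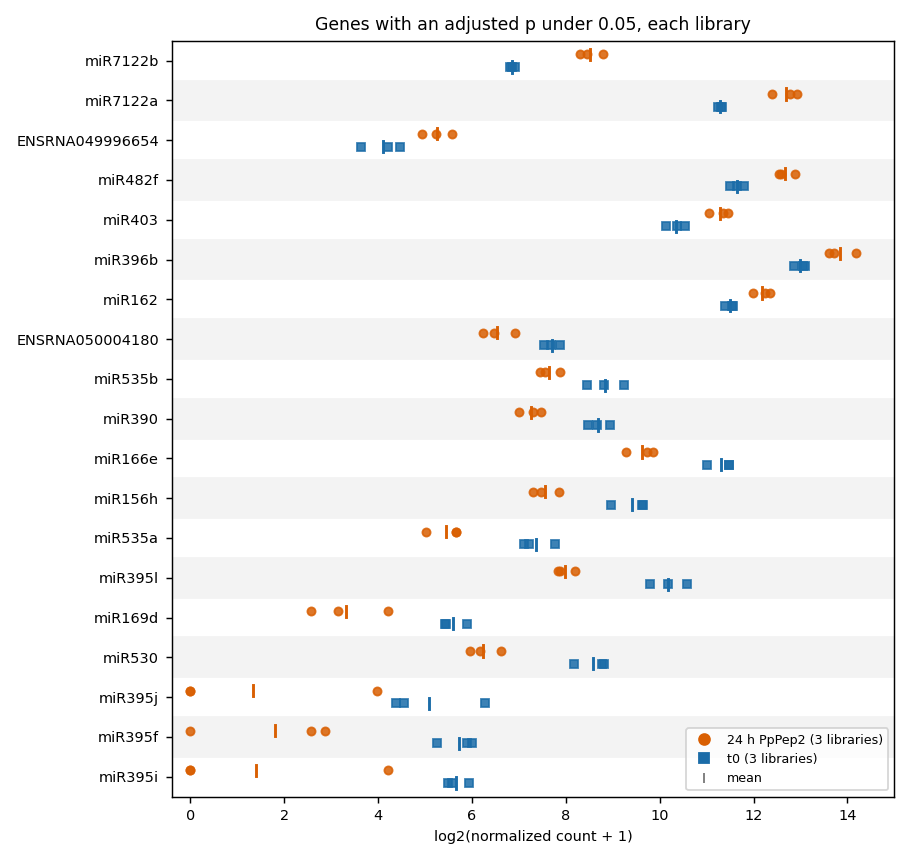
Values of the 19 genes with an adjusted p under 0.05, as log2(normalized count + 1) on the x axis, with 24 h PpPep2 libraries as circles above t0 libraries as squares and a tick at each group's mean, ordered by fold change. In every one of the 19 genes the 3 libraries of 24 h lie on 1 side of the 3 of t0, and the libraries at 0 are those of miR395j, miR395f and miR395i at 24 h.

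The libraries differed in depth. Within each library the low values were whole multiples of a fixed step, taken as the worth of 1 read, which put 138926 to 292359 reads on pre_miRNA genes at 24 h and 115519 to 546709 at t0. The shallowest was t0 replicate 2, where 3 reads, taken as the smallest amount that can be shown, were worth 8.53 normalized counts, against 1.46 in t0 replicate 3 and 3.77 to 7.84 at 24 h. These floors cover counting error only. The sum of normalized counts over all pre_miRNA genes was 358637 to 367834 at 24 h and 266907 to 328582 at t0. Replicates of a group differed by more than counting noise (chi-square per degree of freedom 24.5 to 60.5 between pairs at 24 h and 59.6 to 89.5 at t0).

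Among the 7 phasiRNA triggers, 3 rose, 1 fell and 3 were not called (57.1% called, against 51.5% of the named and 14.1% of all genes), with a median log2 fold change of 0.93 against -0.01 over all genes. The 2 miR7122 genes rose the most of the genes called. miR7122 acts in fruit trees of the rose family on PPR (pentatricopeptide repeat) genes, from which it starts phasiRNAs. miR7122a had 6968, 5355 and 7763 normalized counts at 24 h, against 2517, 2423 and 2577 at t0. miR7122b, at a lower level, had 346, 314 and 443 at 24 h, against 115, 119 and 111 at t0. In both genes all 24 h libraries were high, with no overlap, and the t0 libraries were close to each other. The log2 fold change was 1.40 (95% interval 0.80 to 2.00, limma adjusted p = 0.0144) for miR7122a and 1.65 (0.97 to 2.33, limma adjusted p = 0.0144) for miR7122b. Both calls held under all 10 alternative settings of the fit, and those of miR7122b in 7 and of miR7122a in 5 of the 9 fits that left out 1 library.

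The 4 named miR482 genes did not move together. miR482 acts on genes of NBS-LRR immune receptors. miR482f, the most abundant of them at 24 h, had 7596, 5914 and 6159 normalized counts at 24 h, against 3215, 3527 and 2904 at t0, a log2 fold change of 1.02 (95% interval 0.50 to 1.55, limma adjusted p = 0.0246). Its groups did not overlap. It kept its call in 3 of the 9 fits that left out 1 library and lost it with a replicate block. miR482a averaged 620 ± 142 at 24 h and 324 ± 71.0 at t0 (SD, n = 3 each), and miR482e averaged 825 ± 102 at 24 h and 534 ± 103 at t0 (SD, n = 3 each). Both lay above t0 in all 24 h libraries without passing the test, with log2 fold changes of 0.93 (limma adjusted p = 0.058) and 0.64 (limma adjusted p = 0.0729). miR482c went the other way, with 1351, 2369 and 2026 normalized counts at 24 h, against 4869, 3959 and 4390 at t0. All its 24 h libraries were low, and the log2 fold change of -1.23 had a limma adjusted p of 0.0638. The 3p sequences of the family differ within bases 2 to 8 also, miR482c from miR482a by U3C, G6A and A8G there and by A9C and U12G after it. Summed, the 4 named genes stood at 9917 ± 533 normalized counts at 24 h and 8479 ± 578 at t0 (SD, n = 3 each), a log2 fold change of 0.23 (limma adjusted p = 0.264).

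miR390, which with AGO7 starts the trans-acting siRNAs of the TAS3 transcripts that act on auxin response factors, was the phasiRNA trigger that fell. It had 126, 175 and 156 normalized counts at 24 h, against 491, 356 and 403 at t0. Every 24 h library was under every t0 library. The log2 fold change was -1.44 (95% interval -2.06 to -0.83, limma adjusted p = 0.0144). The call held under all 10 alternative settings of the fit and in 6 of the 9 fits that left out 1 library.

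Of the 3 miRNAs that act on the silencing machinery, 2 rose and 1 was not called (66.7% called, against 51.5% of the named and 14.1% of all genes). miR403, which acts on AGO2, an Argonaute of antiviral and antibacterial defence, had 2606, 2131 and 2792 normalized counts at 24 h, against 1126, 1476 and 1319 at t0. miR162, which acts on DCL1, had 4820, 4032 and 5230 at 24 h, against 3039, 2992 and 2672 at t0. Neither overlapped between the groups. The log2 fold change was 0.94 (95% interval 0.46 to 1.42, limma adjusted p = 0.0246) for miR403 and 0.69 (0.28 to 1.10, limma adjusted p = 0.0377) for miR162. miR162 was not called with equal library totals (log2 fold change 0.40), without the trend in limma or with a replicate block. miR403 lost its call with a replicate block. Of the 9 fits that left out 1 library, miR162 kept its call in 2 and miR403 in 5. miR168, which acts on AGO1, had 372, 528 and 554 at 24 h, against 1011, 594 and 759 at t0. Its 24 h libraries were all under those of t0, with t0 replicate 2 close to them, and it did not pass (log2 fold change -0.69, limma adjusted p = 0.122).

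Among the 10 genes whose best known targets are transcription factors, 1 rose, 3 fell and 6 were not called (40% called, against 51.5% of the named and 14.1% of all genes). miR396b, which acts on GRF growth-regulating factors, was the most abundant named gene, with 12382, 13457 and 18555 normalized counts at 24 h, against 8701, 8465 and 7443 at t0. Its groups did not overlap, and replicate 3 stood highest at 24 h. The log2 fold change was 0.83 (95% interval 0.36 to 1.31, limma adjusted p = 0.0363), and miR396b kept its call in 3 of the 9 fits that left out 1 library. It was not called with equal library totals (0.54), without the trend in limma or with a replicate block. The sum of the 10 genes, led by miR396b, was 16549 ± 3233 at 24 h and 11992 ± 1109 at t0 (SD, n = 3 each; two-sided exact permutation p = 0.1, the smallest that 3 against 3 allow). As a share of the library the sum was 3.96%, 4.18% and 5.50% at 24 h, against 4.32%, 3.74% and 4.04% at t0, and the groups overlapped (two-sided exact permutation p = 0.5).

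The 3 that fell act on SPL, HD-ZIP III and NF-YA factors. miR156h, whose SPL targets set the change from juvenile to adult growth, had 157, 230.1 and 177 normalized counts at 24 h, against 794, 495 and 789 at t0. miR166e, whose HD-ZIP III targets set leaf polarity, had 623, 928 and 852 at 24 h, against 2835, 2830.2 and 2057 at t0. miR169d, which acts on NF-YA subunits, had 4.92, 7.84 and 17.6 at 24 h, against 58.5, 42.7 and 42.0 at t0. All 3 were low in every 24 h library without overlap. The 2 lower values of miR169d at 24 h are worth 3 reads each. The log2 fold changes were -1.86 for miR156h (limma adjusted p = 0.0178), -1.69 for miR166e (limma adjusted p = 0.0363) and -2.28 for miR169d (limma adjusted p = 0.0144). The call of miR169d held in 7, that of miR156h in 5 and that of miR166e in 3 of the 9 fits that left out 1 library. miR166e was not called with equal upper quartiles (-1.39), without the trend in limma or with a replicate block.

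The 2 miR156 genes moved apart although their mature letters are the same. miR156g had 328, 23.5 and 159 normalized counts at 24 h, against 2.49, 0 and 1.95 at t0, where its values came from 4, 0 and 4 reads. The groups did not overlap, but the 24 h libraries spread widely, and its log2 fold change of 5.64 (95% interval 1.49 to 9.80) had a limma adjusted p of 0.0643. Added together, the 2 genes gave 485, 254 and 336 normalized counts at 24 h, against 796, 495 and 791 at t0. The sum was below t0 in every 24 h library, with 24 h replicate 1 close to t0 replicate 2, and did not pass (log2 fold change -0.97, limma adjusted p = 0.0839 among the family sums).

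The other transcription factor miRNAs did not pass singly. miR171a and miR171c, which act on GRAS factors of meristems, averaged 111 ± 19.0 and 15.8 ± 4.76 at 24 h, against 74.2 ± 4.23 and 3.61 ± 3.16 at t0 (SD, n = 3 each). Both lay above t0 in all 24 h libraries. Their sum, 144, 120.3 and 116 at 24 h against 81.5, 76.8 and 75.2 at t0, passed with a log2 fold change of 0.69 (limma adjusted p = 0.0391 among the family sums). miR159, which acts on GAMYB-like MYB factors, averaged 128 ± 27.6 at 24 h and 82.4 ± 7.52 at t0 (SD, n = 3 each), with a log2 fold change of 0.61 (limma adjusted p = 0.0999). miR172b, which acts on AP2 factors and counters miR156 in phase change, averaged 42.8 ± 13.9 at 24 h and 113 ± 27.7 at t0 (SD, n = 3 each), with a log2 fold change of -1.41 (limma adjusted p = 0.122). miR167a, which acts on auxin response factors, was the single named gene whose groups overlapped, with 372, 261 and 219 at 24 h, against 239, 188 and 172 at t0 (log2 fold change 0.49, limma adjusted p = 0.286).

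All 9 named genes of miR395 lay below t0 in every 24 h library. Groups did not overlap for 97.0% of the 33 named genes, 20 of them below, and for 41.5% of all genes, 21.5% below. miR395 acts on ATP sulfurylases and a sulfate transporter and so on sulfate assimilation, and the family is known to be induced when sulfate is short. Of the 9, 4 fell (miR395f, miR395i, miR395j, miR395l) and 5 were not called (44.4% called, against 51.5% of the named and 14.1% of all genes), with a median log2 fold change of -3.35, against -0.01 over all genes. miR395l, the highest of the 8 genes that share 1 mature sequence, had 235, 227 and 293 normalized counts at 24 h, against 884, 1539 and 1156 at t0. Its groups were far apart, with a log2 fold change of -2.21 (95% interval -3.61 to -0.81, limma adjusted p = 0.0432). It kept its call in 2 of the 9 fits that left out 1 library and was not called with no minimum mean or without the trend in limma. miR395f had 4.92, 0 and 6.29 at 24 h, against 37.3, 62.6 and 58.6 at t0, with a log2 fold change of -3.91 (95% interval -5.65 to -2.16, limma adjusted p = 0.0165). It was the miR395 gene called under all 10 alternative settings of the fit, and it was called in 6 of the 9 fits that left out 1 library.

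In the low members the 24 h values were at or near the floor of detection. miR395i had 0, 0 and 17.6 normalized counts at 24 h, against 43.5, 59.7 and 46.4 at t0 (log2 fold change -4.25, limma adjusted p = 0.0334). miR395j had 14.8, 0 and 0 at 24 h, against 19.9, 76.8 and 22.5 at t0 (log2 fold change -3.75, limma adjusted p = 0.0432), so that 24 h replicate 1 came close to 2 of the t0 libraries. Of the 9 fits that left out 1 library, miR395i kept its call in 4 and miR395j in 2. Both lost it with a replicate block. miR395j also lost it with no minimum mean, without the trend in limma and with only the 6 libraries compared. miR395k had 21.3, 0 and 88.1 at 24 h, against 164, 563 and 401 at t0, and did not pass (log2 fold change -4.73, limma adjusted p = 0.0569). A log2 fold change with values at 0 depends on the 1 that was added, and a gene at 0 was not detectable at that depth. miR395m had a single 24 h library above 0, at 3.28, against 8.53 to 22.0 at t0, and miR395c and miR395n averaged 48.9 ± 27.2 and 83.9 ± 4.83 at 24 h, against 108 ± 17.5 and 233 ± 90.7 at t0 (SD, n = 3 each), none of the 3 called.

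miR395a carried most of the counts of the 9 named miR395 genes. It had 1665, 889 and 2822 normalized counts at 24 h, against 3956, 8035 and 6962 at t0. The groups did not overlap, but the spread within each was wide, and its log2 fold change of -1.91 had a limma adjusted p of 0.0569. Summed over the 8 genes with the letters of miR395l, the counts were 433, 335 and 542 at 24 h, against 1424, 2711 and 2072 at t0, a log2 fold change of -2.22 (limma adjusted p = 0.0274, with copies summed). The 9 named genes together had 2228 ± 1076 normalized counts at 24 h and 8387 ± 2741 at t0 (SD, n = 3 each), or 0.61% and 2.82% of the library's normalized counts. Their sum did not pass (log2 fold change -1.97, limma adjusted p = 0.0549). With equal library totals all 9 genes were called lower.

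Of the remaining 4 named genes, 3 fell (75% called, against 51.5% of the named and 14.1% of all genes). miR535a and miR535b, close in sequence to miR156 and known in some plants to act on SPL factors too, were low in all 24 h libraries. miR535a had 49.2, 49.7 and 31.5 normalized counts at 24 h, against 216, 148 and 137 at t0. miR535b had 235, 188 and 174 at 24 h, against 603, 447 and 348 at t0. The log2 fold change was -1.92 (95% interval -2.60 to -1.24, limma adjusted p = 0.0144) for miR535a and -1.20 (-1.89 to -0.51, limma adjusted p = 0.0363) for miR535b. The call of miR535a held under all 10 alternative settings of the fit and in 7 of the 9 fits that left out 1 library. miR535b kept its call in 3 of the 9. It was not called with equal upper quartiles (-0.90), without the trend in limma or with a replicate block. miR530 had 60.7, 96.7 and 70.5 at 24 h, against 448, 435 and 289 at t0, all 24 h libraries being far below, with a log2 fold change of -2.35 (95% interval -3.52 to -1.18, limma adjusted p = 0.0246) and a call kept in 4 of the 9 fits that left out 1 library. miR8127 had 1405, 1331 and 1380.2 at 24 h, against 1741, 1829 and 1665 at t0, groups that did not overlap, with a log2 fold change of -0.35 that did not pass (limma adjusted p = 0.174).

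**Figure D2:**
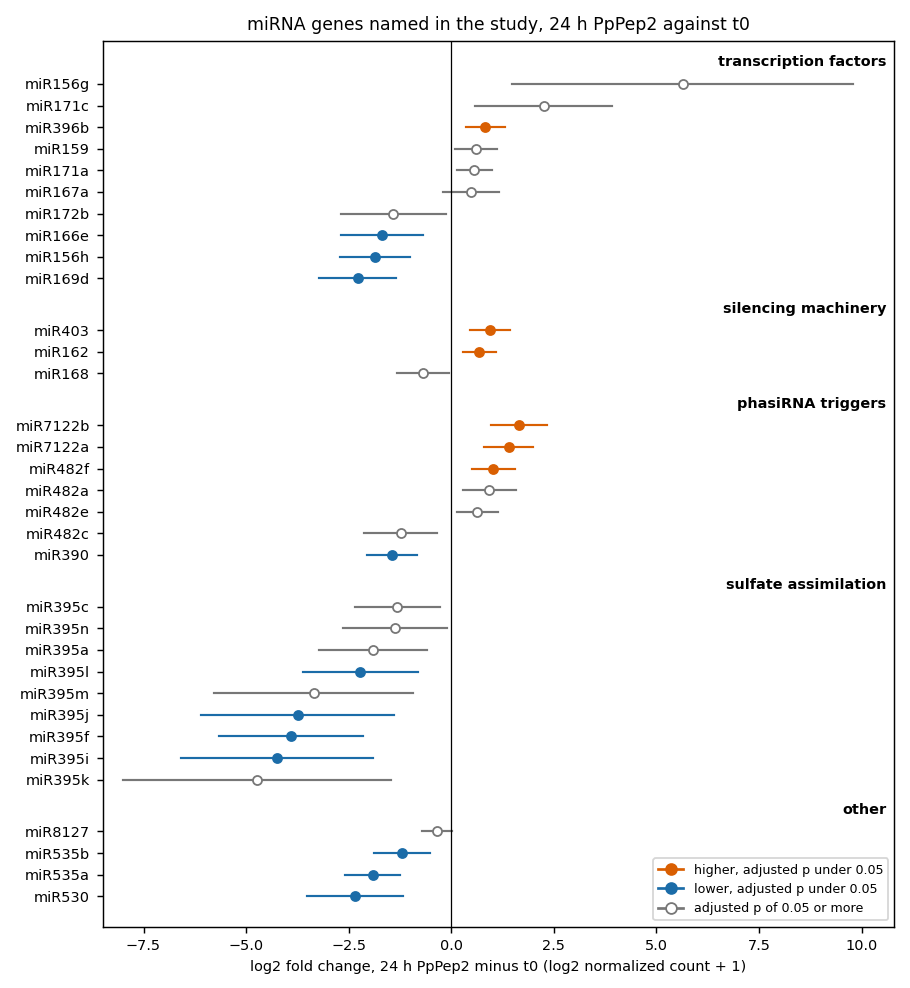
Log2 fold change of the 33 named genes at 24 h PpPep2 minus t0 on the x axis, with 95% intervals from limma, in 5 groups by best known target. Points are orange for the 6 genes higher and blue for the 11 lower at an adjusted p under 0.05, and open for the other 16. The 9 miR395 genes all lie below 0, while the transcription factor group holds 6 genes above 0 and 4 below.

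When the named genes of a family were summed and tested beside all other genes, 12 of 120 features (10%) had an adjusted p under 0.05 by limma with Benjamini-Hochberg adjustment, and 10 of the 12 were families. miR7122, miR403, miR396, miR171 and miR162 were higher, and miR530, miR169, miR166, miR390 and miR535 were lower. With equal library totals miR7122 was the single family called higher, and miR166, miR169, miR390, miR395, miR530 and miR535 were called lower. With equal upper quartiles miR159 was also called higher and miR166 was not called. miR7122 reached 7063 ± 1287 normalized counts at 24 h against 2621 ± 73.5 at t0 (SD, n = 3 each), and miR535 stood at 242 ± 39.5 at 24 h against 633 ± 171 at t0 (SD, n = 3 each). In these sums limma called 0 families without t0 replicate 1, 2 or 3 or without 24 h replicate 1, with 22, 27, 24 and 24 features at an unadjusted p under 0.05. Without 24 h replicate 3 it called 1 family, miR169, and without 24 h replicate 2 it called 5.

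**Figure D3:**
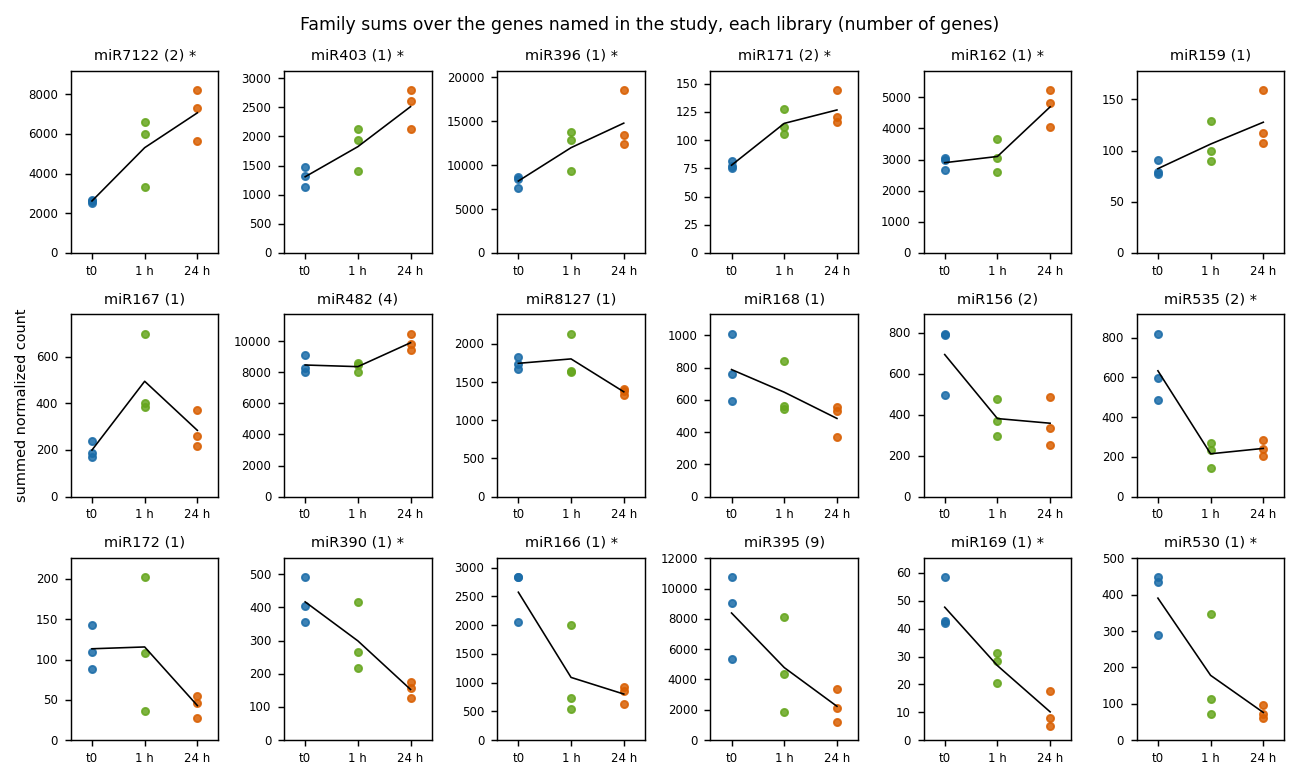
Summed normalized counts of the named genes of each family (number of genes in brackets) in the 3 libraries of t0, 1 h and 24 h, with a line through the group means and the y axis starting at 0. An asterisk marks the 10 families with a limma adjusted p under 0.05 at 24 h against t0, and the panels run in order of fold change, with miR7122 first and miR530 last.

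The series also holds 3 libraries taken 1 h after PpPep2, which share the t0 libraries with the comparison at 24 h, so the values of both are only set side by side. At 1 h against t0, limma called 1 of the 135 genes (0.741%), miR535a. All 19 genes called at 24 h had a 1 h mean on the same side of t0 as at 24 h. The shared t0 libraries, and the choice of these genes by their 24 h change, favour that in advance. In 11 of the 19 the 1 h libraries did not overlap t0, against 29 of all 135 genes (21.5%). For 9 of the 19 the 1 h change on the log2 scale was under 50% of that at 24 h. miR162 was among these, at 12.2%, with 2589, 3049 and 3664 normalized counts at 1 h. miR535a was already as low at 1 h, with 26.8, 46.7 and 37.7 normalized counts, a change of 112% of that at 24 h. Between 24 h and 1 h limma called 0 genes (0.0%), with 18 at an unadjusted p under 0.05, so no gene was shown to differ between the treated times.

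Of the 102 genes outside the named list, 1 rose and 1 fell, 24 (23.5%) had groups that did not overlap, 15 above and 9 below, and the median log2 fold change was 0.02. ENSRNA049996654 had 29.5, 36.6 and 46.6 normalized counts at 24 h, against 21.1, 11.4 and 17.6 at t0 (log2 fold change 1.14, limma adjusted p = 0.0384). ENSRNA050004180 had 86.9, 120.3 and 74.2 at 24 h, against 185, 233 and 204 at t0 (log2 fold change -1.16, limma adjusted p = 0.0363). Both had groups that did not overlap. The call of ENSRNA049996654 was lost with equal library totals, with no minimum mean and with a replicate block. That of ENSRNA050004180 was lost with equal upper quartiles, without the trend in limma and with a replicate block. ENSRNA049996654 and ENSRNA050004180 kept their calls in 2 and 4 of the 9 fits that left out 1 library.

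Some unnamed genes had large differences that did not pass. ENSRNA049997224 had 44.3, 136 and 96.9 normalized counts at 24 h, against 0, 0 and 33.2 at t0 (log2 fold change 4.71, 95% interval 0.55 to 8.86, limma adjusted p = 0.115), so that t0 replicate 3 came near the lowest 24 h library. ENSRNA049996337 had 125, 204 and 313 at 24 h, against 723, 435 and 492 at t0, but 449, 136 and 0 at 1 h, and that spread entered its test (log2 fold change -1.42, limma adjusted p = 0.614). With only the 6 libraries compared in the fit, ENSRNA049996337 was called lower (limma adjusted p = 0.0243). ENSRNA049996257 averaged 6071 ± 281 at 24 h and 3829 ± 368 at t0 (SD, n = 3 each), with a log2 fold change of 0.67 and a limma adjusted p of 0.0569. ENSRNA049996020 averaged 94.7 ± 22.2 at 24 h and 187 ± 3.57 at t0 (SD, n = 3 each), with a log2 fold change of -0.997 and the same limma adjusted p of 0.0569. ENSRNA049996084 and ENSRNA049997219 also did not pass, with log2 fold changes of -1.33 and 0.93 (limma adjusted p = 0.116 and 0.232).

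The 5 genes highest at t0 took 59.9% of the normalized counts of a 24 h library and 54.6% of those of a t0 library on average. ENSRNA049996936, the highest, had 91006, 104503 and 97025 normalized counts at 24 h, against 45012, 68724 and 41316 at t0. All its 24 h libraries were high, and its share of the library was 25.4% to 28.8% at 24 h and 15% to 20.9% at t0, but the log2 fold change of 0.95 did not pass (limma adjusted p = 0.103). ENSRNA049997141 averaged 35626 ± 3434 at 24 h and 22569 ± 2033 at t0 (SD, n = 3 each), also without overlap, with a log2 fold change of 0.66 (limma adjusted p = 0.0643). The other three overlapped and had log2 fold changes of 0.02 for ENSRNA049997204, -0.06 for ENSRNA050003608 and -0.19 for ENSRNA049996520, each of which changed sign with another scaling. The 33 named genes together took 12.5% of a library at 24 h and 13.3% at t0, shares that overlapped (two-sided exact permutation p = 0.4).

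**Figure D4:**
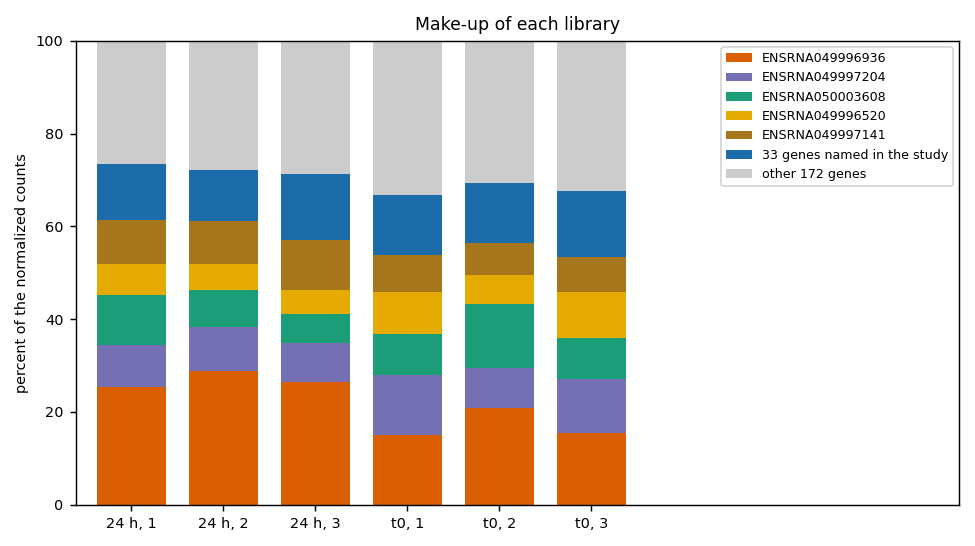
Share of each library's normalized counts, in percent on the y axis, taken by the 5 genes highest at t0, by the 33 named genes together and by the other 172 genes, with the 3 libraries of 24 h PpPep2 left of the 3 of t0. ENSRNA049996936 takes 25.4% to 28.8% at 24 h and 15% to 20.9% at t0, while the share of the named genes overlaps between the groups.

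By abundance at t0, the calls lay among genes of middle and high level, where the spread within groups was also smaller. Over all 135 genes 14.1% were called. Of the 18 genes with a mean under 10 normalized counts at t0, 0 were called by limma (3 had an unadjusted p under 0.05). From 10 to under 100, 1 of 52 genes rose and 4 fell. From 100 to under 1000, 1 of 35 rose and 6 fell. At 1000 and over, 5 of 30 rose and 2 fell. The 5 were miR7122a, miR482f, miR403, miR396b and miR162, and the 2 were miR166e and miR395l. From the lowest class to the highest, the median spread within groups (residual SD on the log2 scale) was 0.698, 0.462, 0.38 and 0.279. The median absolute log2 fold change was 0.54, 0.546, 0.688 and 0.527 in the same order. Whether calls depend on abundance apart from this spread was not tested. The median log2 fold change was 0.44, -0.20, -0.47 and 0.13 from the lowest class to the highest. The t0 values enter both the class and the fold change. Genes with a t0 mean under 5, such as miR156g at 1.48, passed the minimum mean only through higher values at 1 h or 24 h. The filter therefore favours rises in the lowest class, where 16 of 18 log2 fold changes were above 0. Classes were also taken from the 1 h libraries, which do not enter the fold change. The median log2 fold changes were then 0.07, -0.09, -0.42 and 0.13, so those of both lower classes lay nearer 0.

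**Figure D5:**
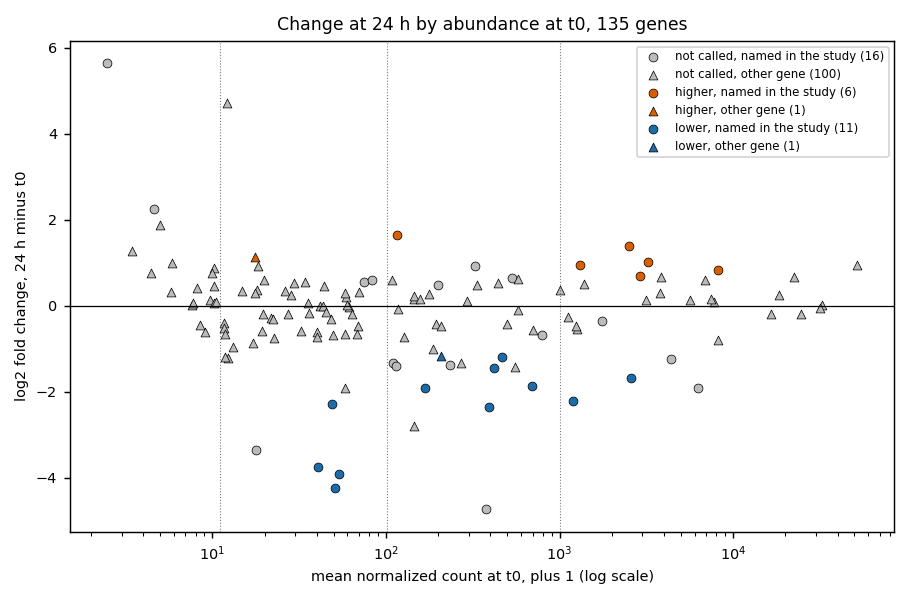
Log2 fold change at 24 h minus t0 on the y axis against the mean normalized count at t0 plus 1 on a log x axis, for the 135 genes, with circles for named and triangles for other genes and dotted lines at the class limits of 10, 100 and 1000. Of the 7 genes that rose, 5 stand at 1000 or more, and the genes that fell stand mostly between 10 and 1000.

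In the mature sequences listed for the named genes, 39 entries for 33 genes held 29 distinct sequences. A length of 22 bases was listed for 6 genes, all of miR482 and miR7122, of which 3 rose and 0 fell by limma, with 1 log2 fold change below 0, that of miR482c (all 6 had an unadjusted p under 0.05). A length of 21 bases was listed for 28 genes, of which 4 rose and 11 fell. Genes can be listed with both arms and so count under 2 lengths. A first base C was listed for 11 genes, of which 1 rose and 4 fell, but 9 of them are the miR395 genes and so mostly 1 sequence. A first base U was listed for 22 genes, of which 6 rose and 6 fell. Over all 33 named genes 6 rose and 11 fell (51.5% called, against 14.1% of all genes). Whether any length or first base differs from that was not tested, and members of a family are not independent.

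The other 75 of the 210 genes were under the minimum mean, 16 of them at 0 in every library and 59 with some value. In 4 of the 75 the 24 h libraries lay all above those of t0 and in 0 all below, against 27 and 29 of the 135 compared. Among the 4, ENSRNA049996384, ENSRNA049996473 and ENSRNA049996502 had the same values in every library, from 2, 1 and 2 reads at 24 h. Of the 135 genes compared, 125 had a mean of at least 5 in both groups, and 15 were at 0 in at least 1 of the 6 libraries.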

How the data were processed

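The deposited table holds normalized counts of pre_miRNA genes, a signal with decimals that the authors made by trimming reads (Trim Galore 0.6.6), mapping them to Prunus_persica_NCBIv2.38 (STAR 2.5.3a), quantifying genes of Ensembl Plants release 48 (RSEM 1.3.0) and scaling libraries, so that reads shared by copies were divided before deposit. DESeq2 1.26.0 is also listed in the submitters' processing notes. Columns were matched to samples by label, and 0 columns of per-sample values were left unused. The authors' own fold changes and p-values were not used.

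Genes with a mean of at least 5 over 9 libraries were compared by limma 3.58.1 on a log2 scale after adding 1 to each normalized count (R 4.3.3, empirical Bayes trend, no replicate block), fitted to all 9 libraries, with Benjamini-Hochberg adjustment and a threshold of 0.05. Family sums were tested in the same way, and single sums by two-sided exact permutation (smallest p 0.1 for 3 against 3). The script was tested on simulated data. Other steps ran in Python 3.11.15 with scipy 1.17.1 for permutations, pandas 2.3.3 and numpy 2.4.6 for tables and matplotlib 3.10.9 for figures.

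In every library 100.0% of the 146 to 182 values above 0 were whole multiples of a step within 0.02 normalized counts. Of these, 64 to 80 per library were low values. Since 100 low values per library were required, no count test of 24 h against t0 was run. Reads were used for depth, for floors, for the chi-square between replicates and for flagging a gene under the minimum mean. The precision of a value is set by its floor of 3 reads and by 3 libraries per group.

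Genes were named if called, if on the study's list of 33, if among the 5 highest at t0, or if among the 5 largest changes in each direction outside that list without overlap and with a mean of at least 20 in the higher group. The genes, the target groups and the tests were chosen with earlier results of these data known. The alternatives were 0.5 or 5 added, no minimum mean or 20, equal totals, equal upper quartiles, no trend, 6 libraries only, a replicate block, an absolute log2 fold change of at least 1, copies summed, each library left out, and library weights, the last chosen after seeing the data. The 10 alternative settings counted for each gene were all of these except the fold change limit, the copies summed and the fits without 1 library. No gene positions are given, because the reference table at hand matched 0 of 210 identifiers.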

Additional observations from a re-analysis of the deposited data

Results flagged for a closer look

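ENSRNA049996963 lay under the minimum mean and entered no comparison. It had 11.5, 7.84 and 7.55 normalized counts at 24 h, a mean of 8.96 from 7, 3 and 6 reads, against 4.98, 0 and 0 at t0. Its 24 h libraries were all above those of t0, as in 4 of the genes not compared, and it was the one of these with at least 3 reads in every 24 h library. At 1 h it had 0, 1.37 and 3.28. The difference was not tested.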

How the results depend on the processing

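Counts of genes at an adjusted p under 0.05 (limma, Benjamini-Hochberg) were 7 higher and 12 lower as reported. The number higher was 4 with equal library totals, 21 with equal upper quartiles, 13 with only the 6 libraries compared, 4 with an absolute log2 fold change of at least 1 and 16 with library weights, an alternative chosen after seeing the data. The number lower was 7 without the trend and 21 with library weights. Leaving out each library gave 0 to 16 higher and 0 to 19 lower. The replicate block gave 2 higher and 8 lower. Deviations of same-numbered 24 h and t0 libraries correlated by -0.03, 0.13 and 0.04 across genes, and not every library correlated best with its own number. With 3 libraries per group, such correlations cannot decide whether replicate numbers pair the samples. Families called in the sums were 10, and 6 with no minimum mean, 3 without the trend, 6 with the replicate block and 0 to 12 with each library left out. Of the 19 genes, 8 kept their call under all 10 alternative settings of the fit, 0 kept it in all 9 fits without 1 library, and 19 kept their sign in every fit. The sign was fixed in advance except where libraries were rescaled, since the groups of these genes do not overlap. Of the 47 genes picked by the naming rules given above, which go beyond the study's 33, 28 were not called, and 20 of these passed under at least 1 alternative. The genes whose sign changed were not called in any fit: ENSRNA049996520 had a log2 fold change of 0.11 with equal upper quartiles. ENSRNA049997204 had -0.27 with equal totals, -0.082 to 0.146 over the fits without 1 library (below 0 without 24 h replicate 2, t0 replicate 2 or t0 replicate 3) and -0.01 with weights. ENSRNA050003608 had 0.24 with equal upper quartiles, -0.254 to 0.224 over the fits without 1 library (above 0 without 24 h replicate 3 or t0 replicate 2) and 0.10 with weights. The causes were not tested. edgeR and DESeq2 were planned and not run, since each library held 64 to 80 low values to check, under the 100 required. No value checked failed to be a whole multiple of the step. Low genes are limited by depth: 3 reads are worth up to 8.53 normalized counts.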

Other observations

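ENSRNA049996536 and ENSRNA049996542 had equal normalized counts in 8 of the 9 libraries and differed in 24 h replicate 3 alone, at 2.52 and 47.8. They had 41.0 and 23.5 in the other two 24 h libraries and 49.1, 65.4 and 57.1 at t0. The log2 fold change at 24 h was -1.91 (unadjusted p = 0.0418 by limma) for the first and -0.65 (unadjusted p = 0.12 by limma) for the second, so a single value separates them. This pair was chosen after its values were seen.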
